A study of Homo sapiens with 6 samples.

Results

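The enzymes described here make serine, glycine, mitochondrial one-carbon units, asparagine and cysteine. They are 10 human genes, PHGDH, PSAT1, PSPH, SHMT1, SHMT2, MTHFD2, MTHFD1L, ALDH1L2, ASNS and CTH, chosen by their symbols out of 39327 table rows that carry a gene identifier. The choice was made with earlier results of these data known. Each of the 10 stood on a single row. CAL62 cells, an established line of anaplastic thyroid carcinoma (ATC) whose genotype is labelled WT, were grown in RPMI 1640 medium with serum and were treated for 48 h with 50 nM erianin, a bibenzyl natural product, or with an equal concentration of the solvent DMSO. Each group had 3 RNA-seq libraries. The labels do not say whether these came from separate cultures, so p-values measure the spread between these libraries, which may be technical.

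Serine is made from the glycolytic intermediate phosphoglycerate in successive steps by PHGDH, PSAT1 and PSPH. SHMT2 in mitochondria and SHMT1 in the cytosol then move a carbon from serine to tetrahydrofolate and leave glycine. In mitochondria MTHFD2 oxidises this folate-bound carbon and MTHFD1L releases it as formate, which the cytosol uses to build purines and thymidylate, and ALDH1L2 oxidises it to carbon dioxide instead. ASNS makes asparagine, and CTH cleaves cystathionine to cysteine. Many of these genes are known targets of the transcription factor ATF4, which is translated when cells lack amino acids or carry unfolded protein. Proliferating tumour cells often hold several of these enzymes at high levels.

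Of the 9 enzymes with enough reads to test, 8 had a lower mean after erianin. In mean CPM (read counts scaled to the library total) the DMSO group of these 8 stood at 1.17 to 1.75 times the erianin group. Neither end of this range, MTHFD1L and ASNS, passed the test. The upper end, ASNS, had 12.1 CPM in DMSO replicate 3 and 5.99 and 6.22 in the other DMSO libraries. SHMT2, the mitochondrial serine hydroxymethyltransferase and the most counted enzyme of the 10, averaged 839 ± 72.5 CPM (SD, n = 3) with DMSO and 536 ± 9.11 with erianin. PSAT1, the aminotransferase of serine synthesis, averaged 230 ± 44.4 and 159 ± 7.75 CPM. These 2 were the enzymes called lower, with 0 called higher. CTH was the tested enzyme with a fold change above 0, and it did not pass the test.

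Reads counted on named genes ranged from 25776301 to 34107727 a library. DMSO replicate 3 stood apart from the other DMSO libraries. Its distance to them in log2 CPM was 65.7 to 67.8, against 41.3 between DMSO replicates 1 and 2, 29.6 to 30.6 among the erianin libraries and 61.4 to 66.4 from DMSO replicates 1 and 2 to erianin. DMSO replicate 3 lay at 72.3 to 73.3 from the erianin libraries, the largest of these distances. In it, 30.1% of the tested genes lay more than 0.5 log2 units from the mean of DMSO replicates 1 and 2. edgeR estimated the biological variation between libraries of a group at a coefficient of 0.139, which came to 0.0421 once DMSO replicate 3 was left out, so each tested enzyme is given with and without it. Of 6 thyroid follicular markers, TG, TSHR, SLC5A5 and NKX2-1 were under 1 CPM in every library, whereas the thyroid transcription factor PAX8 stood at 643 to 739 CPM with DMSO and 419 to 433 with erianin. FOXE1, another thyroid factor, had 1.07 to 2.28 CPM with DMSO and 1.49 to 1.69 with erianin. All 3 leukocyte and both endothelial markers were under 1 CPM in every library. Of the fibroblast markers DCN was at 0, COL1A1 had 32.0 to 36.1 CPM with DMSO and 26.7 to 29.4 with erianin, and COL1A2 had 7.16 to 11.1 and 22.9 to 26.9. The mesenchymal marker VIM had 1153 to 1511 CPM with DMSO and 915 to 956 with erianin, and CDH2 had 48.9 to 63.9 and 46.1 to 48.2. Of the epithelial markers KRT8 had 1182 to 1556 CPM with DMSO and 1362 to 1461 with erianin. KRT18 had 760 to 994 and 738 to 789, EPCAM had 17.75 to 20.55 and 21.55 to 23.3, and CDH1 was under 1 CPM in every library. The part of these marker differences in the results on the enzymes was not tested.

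The quasi-likelihood test of edgeR was run on raw counts with TMM factors, and a gene was called at a Benjamini-Hochberg adjusted p under 0.05 over all tested genes and an absolute log2 fold change over 0.5. Of the 10 enzymes, 9 passed the low-count filter and ALDH1L2 did not. Of these 9, 2 were called lower, where 3.36% of 12821 tested genes were, and 0 were called higher, where 5.37% of tested genes were. At an unadjusted p under 0.05, 0 enzymes were higher, beside 15.3% of tested genes, and 7 were lower, beside 15.6%. DESeq2 called 0 higher, beside 6.65% of tested genes, and 3 lower, beside 4.14%. The edgeR adjusted p was under 0.05 in 4 of the 9, beside 14.9% of tested genes in either direction and 7.69% on the lower side. That count was 1 (SHMT2) when any 1 library other than DMSO replicate 3 was left out. A log2 fold change below 0 was found in 8 of the 9, beside 49.7% of tested genes. Their median log2 fold change was -0.42, beside 0.00 over all tested genes. In 5 of the 9 (PSAT1, SHMT1, SHMT2, MTHFD2 and ASNS) every erianin library lay below every DMSO library in CPM, which held for 19.3% of tested genes. The other 4 (PHGDH, PSPH, MTHFD1L and CTH) overlapped between groups. Because the enzymes were chosen with earlier results of these data known, these contrasts with all tested genes are a description.

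Without DMSO replicate 3, PHGDH, PSAT1 and SHMT2 were called lower, 3 of 9 where 6.11% of 13053 tested genes were, and 0 were called higher, where 11.4% were. The adjusted p was then under 0.05 in 8 of the 9, all of them below 0, but with the smaller spread it was so in 55.2% of all tested genes, and in 27.7% on the lower side. The median over the 9 was again -0.42, beside 0.02 over all tested genes. In a CPM sum over the 10 enzymes, DMSO replicates 1, 2 and 3 gave 2106, 2051 and 1649, and the erianin replicates gave 1362, 1344 and 1380. In this sum DMSO replicate 3 fell between the other DMSO libraries and the erianin libraries. Among single enzymes PSAT1, SHMT2 and MTHFD2 followed this. SHMT1, ASNS and the sparsely counted ALDH1L2 were highest in DMSO replicate 3. PHGDH, PSPH, MTHFD1L and CTH lay within the range of the erianin libraries there. Over all tested genes DMSO replicate 3 lay farther from the erianin libraries than the other DMSO libraries did.

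**Figure D1:**
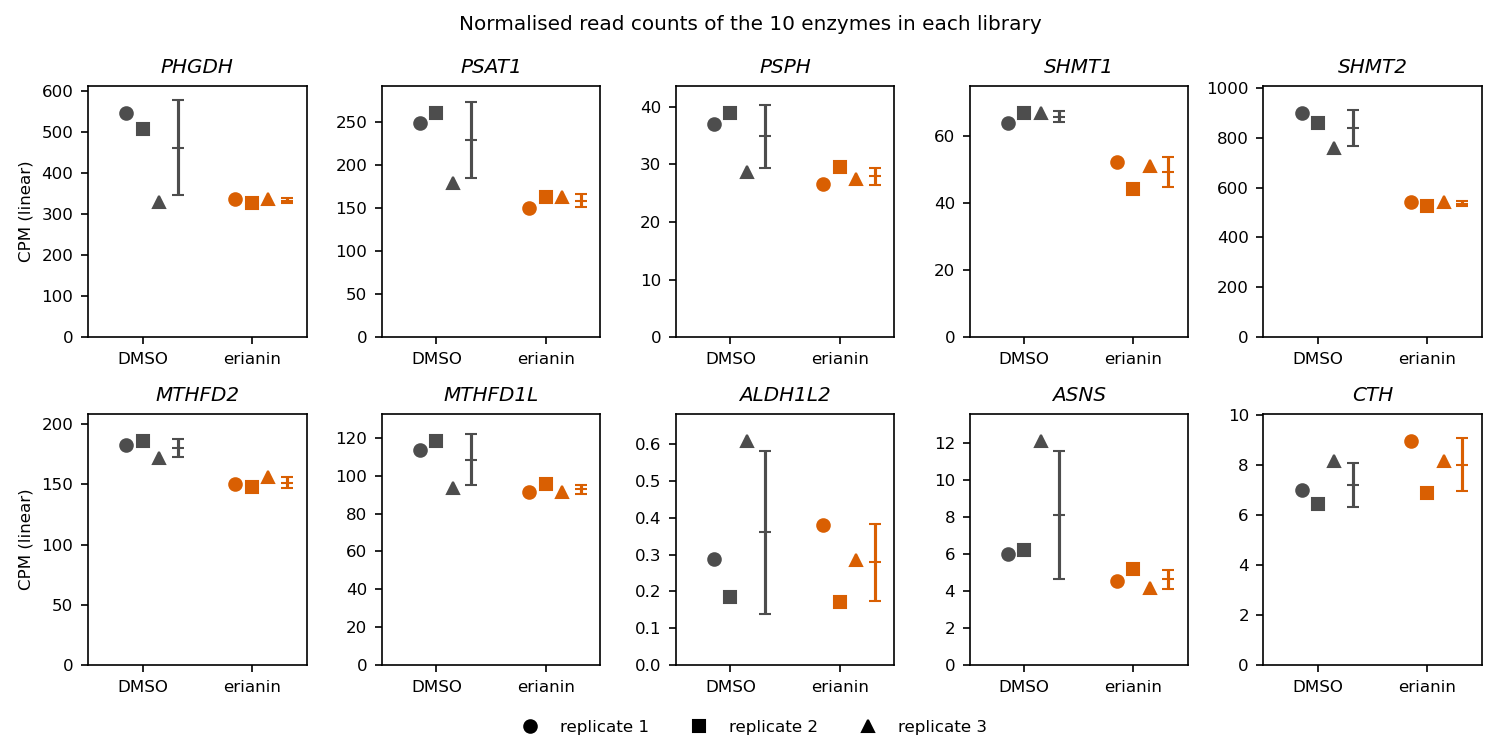
TMM-normalised CPM (linear axes from 0) of the 10 enzymes in the 3 DMSO (grey) and 3 erianin (orange) libraries, with 1 symbol per replicate number and bars for the mean and SD (n = 3). The triangle of DMSO replicate 3 lies near the erianin values for PHGDH, PSAT1 and PSPH, and far above all other libraries for ASNS.

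PHGDH (ENSG00000092621, chr1:119648411-119744226, plus strand, GRCh38), which opens the serine pathway by oxidising phosphoglycerate, had 546, 508 and 329 CPM in DMSO replicates 1, 2 and 3 and 337, 326 and 335 CPM in erianin replicates 1, 2 and 3. The groups overlapped through DMSO replicate 3 alone, which lay at the level of the erianin libraries and below its 2 companions (-0.68 log2 units from their mean). PHGDH had a log2 fold change of -0.47 (SE 0.17, edgeR adjusted p = 0.112). Without DMSO replicate 3 it was -0.67 (SE 0.04, edgeR adjusted p = 3.5e-15), and PHGDH was called lower. The call for PHGDH therefore rested on whether that library was kept.

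PSAT1 (ENSG00000135069, chr9:78297143-78330093, plus strand), which adds the amino group, had 250, 261 and 179 CPM with DMSO and 150, 164 and 163 CPM with erianin. All erianin libraries lay below all DMSO libraries, with DMSO replicate 3 the nearest to them. Its log2 fold change was -0.53 (SE 0.14, edgeR adjusted p = 0.0422), and it was -0.69 without DMSO replicate 3 (edgeR adjusted p = 1.2e-14). Its call was lost when any 1 of the other 5 libraries was left out, with adjusted p of 0.116 to 0.157 in those fits. PSAT1 also lost it with upper-quartile factors (adjusted p = 0.0525) and on log2(TPM + 1) in limma (log2 fold change -0.32, adjusted p = 0.283).

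PSPH (ENSG00000146733, chr7:56011051-56051604, minus strand), which removes the phosphate to give serine, had 37.0, 38.9 and 28.6 CPM with DMSO and 26.6, 29.6 and 27.5 CPM with erianin. Again DMSO replicate 3 lay within the erianin values. PSPH had a log2 fold change of -0.32 (SE 0.13, edgeR adjusted p = 0.143) with all libraries and -0.45 (edgeR adjusted p = 1.8e-06) without DMSO replicate 3, under the fold threshold in both. In the serine pathway, then, all 3 enzymes had values below 0, and in each DMSO replicate 3 was the lowest DMSO library.

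The transferases that move the carbon of serine onto folate both passed the adjusted p threshold with all 6 libraries. SHMT2 (ENSG00000182199, chr12:57229327-57234935, plus strand) had 900, 858 and 759 CPM with DMSO and 541, 526 and 542 CPM with erianin. Here the gap between the groups was wider than the whole range of the DMSO libraries. SHMT2 had a log2 fold change of -0.65 (SE 0.08, edgeR adjusted p = 0.00463), with a mean 36.1% lower with erianin, and of -0.72 without DMSO replicate 3 (edgeR adjusted p = 2.4e-16). SHMT2 was called lower in all 6 fits that left out 1 library, with log2 fold changes from -0.72 to -0.60. On log2(TPM + 1) in limma, where the median of all genes lay at 0.18, SHMT2 had -0.44 (adjusted p = 0.0444), which is under the fold threshold. The exons of SHMT2 overlap those of NDUFA4L2 on the other strand, which had 1.77 to 3.88 CPM in the 6 libraries.

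SHMT1 (ENSG00000176974, chr17:18327860-18363563, minus strand), the cytosolic form, had 63.9, 66.9 and 67.0 CPM with DMSO and 52.5, 44.2 and 51.1 CPM with erianin. In this gene DMSO replicate 3 lay with the other DMSO libraries, and the groups did not overlap. SHMT1 had a log2 fold change of -0.42 (SE 0.09, edgeR adjusted p = 0.0226), below the fold threshold, and also -0.42 without DMSO replicate 3 (edgeR adjusted p = 1.3e-06). With any other library left out SHMT1 had an edgeR adjusted p of 0.0581 to 0.101, above the threshold. Exons of SHMT1 overlap those of SMCR8 on the opposite strand, which stood at 146 to 162 CPM in the 6 libraries, with a log2 fold change of -0.05 (edgeR adjusted p = 0.662). Whether the counting used strand is not given in the sources used here, so reads of the pair cannot be told apart where they overlap.

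Of the mitochondrial enzymes that process the folate-bound carbon, MTHFD2 passed the adjusted p threshold with a small change. Its edgeR adjusted p was 0.123 to 0.187 with any 1 library other than DMSO replicate 3 left out. With all libraries kept, it was 0.0876 with upper-quartile factors, 0.0609 without the low-count filter, 0.0501 with a minimum of 10 counts and 0.1425 with the replicate block. It stayed under the threshold with RLE factors (edgeR adjusted p = 0.0455) and in DESeq2 (adjusted p = 0.0119). MTHFD2 (ENSG00000065911, chr2:74198562-74217565, plus strand), the dehydrogenase and cyclohydrolase, had 183, 186 and 172 CPM with DMSO and 150, 148 and 156 CPM with erianin. The groups did not overlap, and the SD within each was 7.59 and 4.37 CPM. Its log2 fold change was -0.25 (SE 0.07, edgeR adjusted p = 0.0454), with a mean 16.0% lower with erianin, and -0.29 without DMSO replicate 3 (edgeR adjusted p = 7.9e-07). It was -0.41 when the trend of each library on GC content was removed (edgeR adjusted p = 0.0273), a change of more than 1.5 times in a gene whose transcripts hold 41.4% GC. The median of all tested genes lay at -0.079 in that fit.

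MTHFD1L (ENSG00000120254, chr6:150865549-151101887, plus strand), the formate-releasing synthetase, had 114, 119 and 93.5 CPM with DMSO and 91.3, 95.4 and 91.6 CPM with erianin. DMSO replicate 3 lay within the erianin range. For MTHFD1L the log2 fold change was -0.23 (SE 0.10, edgeR adjusted p = 0.172), and -0.33 without DMSO replicate 3 (edgeR adjusted p = 4.5e-07). ALDH1L2 (ENSG00000136010, chr12:105019784-105084577, minus strand), which burns the carbon to carbon dioxide, had 7, 6 and 19 counts with DMSO and 13, 6 and 10 with erianin, so at this depth no difference was detectable. The step from folate-bound carbon to formate was thus read by 2 well-counted genes, and the competing oxidation by a gene with 6 to 19 reads a library.

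ASNS (ENSG00000070669, chr7:97852118-97872542, minus strand), asparagine synthetase, had 5.99, 6.22 and 12.1 CPM with DMSO and 4.57, 5.18 and 4.17 CPM with erianin. The groups did not overlap, and DMSO replicate 3 stood 0.99 log2 units above the mean of the other DMSO libraries, the opposite of its position in PHGDH and PSAT1. ASNS had the lowest log2 fold change of the tested enzymes, -0.81 (SE 0.28), and did not pass the test (edgeR adjusted p = 0.0985). Without DMSO replicate 3 it was -0.40 (SE 0.15, edgeR adjusted p = 0.020), so the size of the change rested on that library. DESeq2 called ASNS lower with all 6 libraries (adjusted p = 0.0322) and did not without DMSO replicate 3 (log2 fold change -0.41, adjusted p = 0.0523).

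CTH (ENSG00000116761, chr1:70411218-70439851, plus strand), cystathionine gamma-lyase, had 6.98, 6.44 and 8.16 CPM with DMSO and 8.96, 6.87 and 8.17 CPM with erianin. These values overlapped, and the log2 fold change of CTH was 0.15 (SE 0.15, edgeR adjusted p = 0.546). Without DMSO replicate 3 it was 0.25 (SE 0.13, edgeR adjusted p = 0.106). CTH was thus the tested enzyme whose mean was higher with erianin, within the spread of the libraries.

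**Figure D2:**
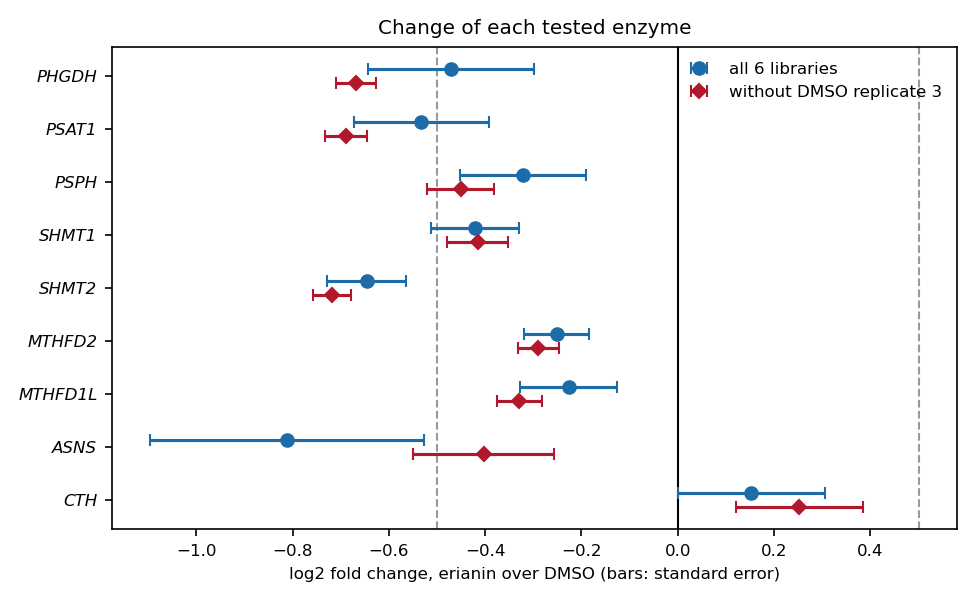
Log2 fold change of erianin over DMSO (horizontal axis, bars for the standard error) of the 9 tested enzymes, with all 6 libraries (circles) and without DMSO replicate 3 (diamonds). Dashed lines mark the fold threshold of 0.5. The diamonds of PHGDH, PSAT1 and SHMT2 lie past it, ASNS moves from -0.81 to -0.40, and SHMT1 stays at -0.42.

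Levels were compared between enzymes per gene length. In deposited TPM, which divide each count by a gene length and a library total, the mean DMSO level (SD, n = 3) was highest for PSAT1, at 379 ± 89.6, followed by SHMT2 at 118 ± 15.6, MTHFD2 at 85.8 ± 7.82, PHGDH at 60.2 ± 17.5, MTHFD1L at 39.4 ± 6.64, SHMT1 at 22.9 ± 1.04, PSPH at 17.4 ± 3.52, CTH at 6.57 ± 0.473, ASNS at 2.10 ± 0.780 and ALDH1L2 at 0.111 ± 0.0624. The order of the means was the same with erianin. Deposited TPM did not add up to the same total in each library, so these SDs also carry that difference. The sums were 59.1 to 73.5% of the nominal total with DMSO and 75.1 to 78.3% with erianin. PHGDH and MTHFD1L overlapped between DMSO libraries, and SHMT2 and MTHFD2 overlapped between erianin libraries.

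This order depended on the gene length behind the TPM values. The length that relates each count to its TPM followed the summed length of all GENCODE 29 transcripts of a gene (r = 0.984 between logarithms over 10451 genes) more closely than the exon union (r = 0.800) or the longest transcript (r = 0.644). PHGDH has 34 transcripts there and SHMT2 has 35, whereas PSAT1 has 2, so the deposited TPM of the former are low for their counts. In CPM per kb of the longest transcript, an alternative chosen after seeing the data, SHMT2 stood first with 246 ± 21.2 with DMSO, PHGDH second with 145 ± 36.4 and PSAT1 next with 105 ± 20.3, and PHGDH and PSAT1 overlapped between libraries. MTHFD2 followed with 40.4 ± 1.70. The remaining 6 enzymes kept their places, with CTH at 3.52 ± 0.429 and ASNS at 3.45 ± 1.48 overlapping. On that scale SHMT2, PHGDH and PSAT1 together made 78.6 to 82.2% of the sum over the 10 enzymes with DMSO and 77.5 to 77.7% with erianin. A comparison of the same gene between libraries does not depend on this length.

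**Figure D3:**
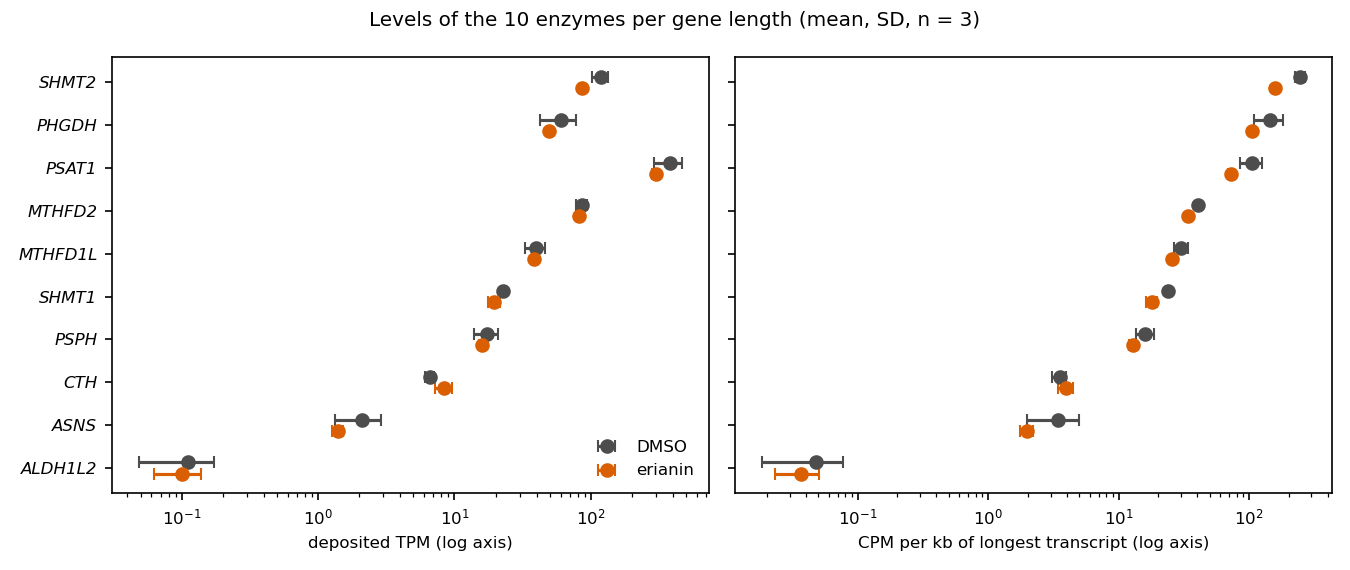
Mean level of the 10 enzymes with DMSO (grey) and erianin (orange), in deposited TPM (left) and in CPM per kb of the longest transcript (right), both on log axes, with bars for the SD (n = 3). PSAT1 leads on the left and SHMT2 on the right, and ALDH1L2 is last on both.

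Ratios between paired enzymes were taken within each library from TPM, so that the library total cancels. The ratio of mitochondrial SHMT2 to cytosolic SHMT1 was 5.68, 5.18 and 4.57 with DMSO and 4.16, 4.80 and 4.28 with erianin. These values overlapped, with a log2 difference of -0.22 (exact two-sided permutation p = 0.2). The ratio of MTHFD2 to MTHFD1, its cytosolic counterpart, was 1.59, 1.59 and 1.29 with DMSO and 1.38, 1.47 and 1.60 with erianin. The log2 difference was -0.0055 (exact permutation p = 1). The ratio of PSAT1 to PSPH was 22.2, 22.0 and 20.6 with DMSO and 18.6, 18.2 and 19.6 with erianin, groups that did not overlap. Its log2 difference was -0.20 (exact permutation p = 0.1, the smallest that 3 against 3 libraries allow). After adjustment over the 3 ratios the p-values were 0.3, 1 and 0.3. The size of each ratio, though not its difference between groups, depends on the gene length behind the TPM. Per kb of the longest transcript the geometric mean of SHMT2 to SHMT1 was 10.2 with DMSO and 8.80 with erianin. It was 1.37 and 1.36 for MTHFD2 to MTHFD1, and 6.54 and 5.68 for PSAT1 to PSPH.

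Promoter sequence was read because ASNS and other enzymes here are textbook targets of ATF4. Its part in the changes between the groups was not tested. RefSeq promoter entries (GRCh38.p14, 250 bases before to 50 after each start) were found for 7 of the 10 enzymes, and not for PSPH, SHMT2 and ALDH1L2. On both strands, 4 motifs were searched: TGATGNAA, part of the composite C/EBP-ATF element, found in 3.62% of all 35116 promoter entries; CACGTG, the E-box, in 7.26%; TGACNNNGC, the core of the antioxidant element, in 13.3%; and TGACGTCA, the cyclic AMP element, in 1.85%. TGATGNAA occurred in ASNS and MTHFD1L, CACGTG in MTHFD1L, TGACNNNGC in MTHFD2, and TGACGTCA in none of the 7. The 120 bases before a start are shown for both genes that held TGATGNAA, with motif letters in capitals. For ASNS this is chr7:97872409-97872528, minus strand, where the motif spans positions -68 to -61 from the start. For MTHFD1L it is chr6:150866327-150866446, plus strand, where CACGTG spans positions -115 to -110 and TGATGNAA positions -90 to -83 from the start of 1 of its entries. The other entries of MTHFD1L that match hold the same bases.
ASNS: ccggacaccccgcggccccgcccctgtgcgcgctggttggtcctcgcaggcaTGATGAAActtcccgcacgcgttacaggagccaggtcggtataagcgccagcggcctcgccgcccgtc
MTHFD1L: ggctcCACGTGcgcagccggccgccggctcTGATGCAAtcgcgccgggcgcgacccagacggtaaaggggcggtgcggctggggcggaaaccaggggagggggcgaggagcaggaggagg

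The letters are a description and do not show that a factor binds. The genes that held TGATGNAA had log2 fold changes of -0.81 (ASNS) and -0.23 (MTHFD1L), and neither passed the test with all libraries. PHGDH, PSAT1, SHMT1 and CTH held none of the 4 motifs in these windows, among them PSAT1, which was called lower.

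Of 11 tested regulators of these enzymes, 2 were called higher and 0 lower, beside 5.37% and 3.36% of all tested genes. Their median log2 fold change was 0.02. DDIT3, the stress factor also known as CHOP, had 39.3, 38.5 and 26.2 CPM with DMSO and 81.5, 84.9 and 82.5 CPM with erianin, a log2 fold change of 1.26 (SE 0.15, edgeR adjusted p = 0.0041). EIF2AK3, the endoplasmic reticulum kinase PERK, rose by 0.53 (edgeR adjusted p = 0.030). DESeq2 called 2 higher and 0 lower, and at an unadjusted p under 0.05 edgeR had 1 regulator lower. ATF4 mRNA had 788, 785 and 874 CPM with DMSO and 651, 628 and 658 with erianin, a log2 fold change of -0.34 (edgeR adjusted p = 0.0233) under the fold threshold. TRIB3, an ATF4 target, had a log2 fold change of 0.02 (edgeR adjusted p = 0.963). Thus DDIT3 and ATF4, which act in the same stress response, lay on opposite sides of 0 in mRNA.

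In the methionine cycle, transsulfuration and glutathione synthesis, 2 of 12 tested genes were called lower and 1 higher, beside 3.36% and 5.37% of all tested genes. The median of the 12 was -0.03. CBS, which makes the cystathionine that CTH cleaves, had 21.7, 23.1 and 17.8 CPM with DMSO and 13.8, 12.9 and 11.4 with erianin, a log2 fold change of -0.71 (edgeR adjusted p = 0.0153). The neighbouring steps of CBS and CTH therefore had values of opposite sign, though CTH did not pass the test and the difference between them was not tested. CHAC1, which degrades glutathione, fell by 0.60 (log2 fold change -0.60, edgeR adjusted p = 0.0203), and GCLM, a subunit of the enzyme that starts glutathione synthesis, rose by 0.52 (edgeR adjusted p = 0.0328). AHCY, which clears S-adenosylhomocysteine, had 1050, 1021 and 648 CPM with DMSO and 602, 594 and 622 with erianin, and like PHGDH its call came without DMSO replicate 3 (log2 fold change -0.58, edgeR adjusted p = 0.062, and -0.78 without that library). GSS, glutathione synthetase, had a log2 fold change of -0.18 (edgeR adjusted p = 0.356).

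Of 17 tested folate and glycine cleavage genes edgeR and DESeq2 each called 0, with a median of 0.07 in edgeR. At an unadjusted p under 0.05, 3 were lower and 1 higher. FPGS, which traps folates in the cell, had an adjusted p of 0.0379 in edgeR and a log2 fold change of -0.41, under the fold threshold. Without DMSO replicate 3, 2 of the 17 were called lower, FPGS (-0.53, edgeR adjusted p = 3.7e-12) and the folate carrier SLC19A1 (-0.63, edgeR adjusted p = 2.5e-08). MTHFD1, the cytosolic folate enzyme, had a log2 fold change of -0.25 (edgeR adjusted p = 0.0917). Of 15 tested enzymes of other amino acids edgeR and DESeq2 each called 0, with a median of -0.10 in edgeR, and at an unadjusted p under 0.05, 3 were lower and 1 higher. The most counted of them, GOT2 and ALDH18A1, had log2 fold changes of -0.10 and -0.04 (edgeR adjusted p of 0.466 and 0.766).

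Of 6 enzymes of purine synthesis, which consumes formyl groups from this pathway, PFAS was called lower (log2 fold change -0.52, edgeR adjusted p = 0.0244) and 0 higher, with a median of -0.20. GART, one of the steps that use formyl-tetrahydrofolate, had a log2 fold change of -0.31 (edgeR adjusted p = 0.0186), and PAICS had -0.11 (edgeR adjusted p = 0.367). PPAT, which opens the pathway, lay on the other side at 0.42 (edgeR adjusted p = 0.0253), also under the fold threshold. At an unadjusted p under 0.05, 2 of the 6 were lower and 1 higher. In lower glycolysis, which supplies phosphoglycerate, 0 of 5 genes were called by edgeR or DESeq2, with 1 lower and 0 higher at an unadjusted p under 0.05. Their median was 0.02, and 3 of the 5 lay above 0. The most counted, GAPDH and PKM, had log2 fold changes of -0.21 and -0.17 (edgeR adjusted p of 0.104 and 0.196), and PGK1, which makes phosphoglycerate, had 0.31 (edgeR adjusted p = 0.215). These lists, in the order given, held 11, 12, 17, 15, 6 and 5 tested genes. Over these lists together with the 2 aminoacyl-tRNA synthetases that had counts, 3 genes were called lower (CBS, CHAC1 and PFAS) and 3 higher. Of all tested genes, 3.36% were called lower and 5.37% higher. With any 1 library other than DMSO replicate 3 left out, 0 listed genes were called lower and 1 higher. Without DMSO replicate 3, 7 were called lower and 6 higher, where 6.11% and 11.4% of all tested genes were. The counts in these lists are given as a description.

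**Figure D4:**
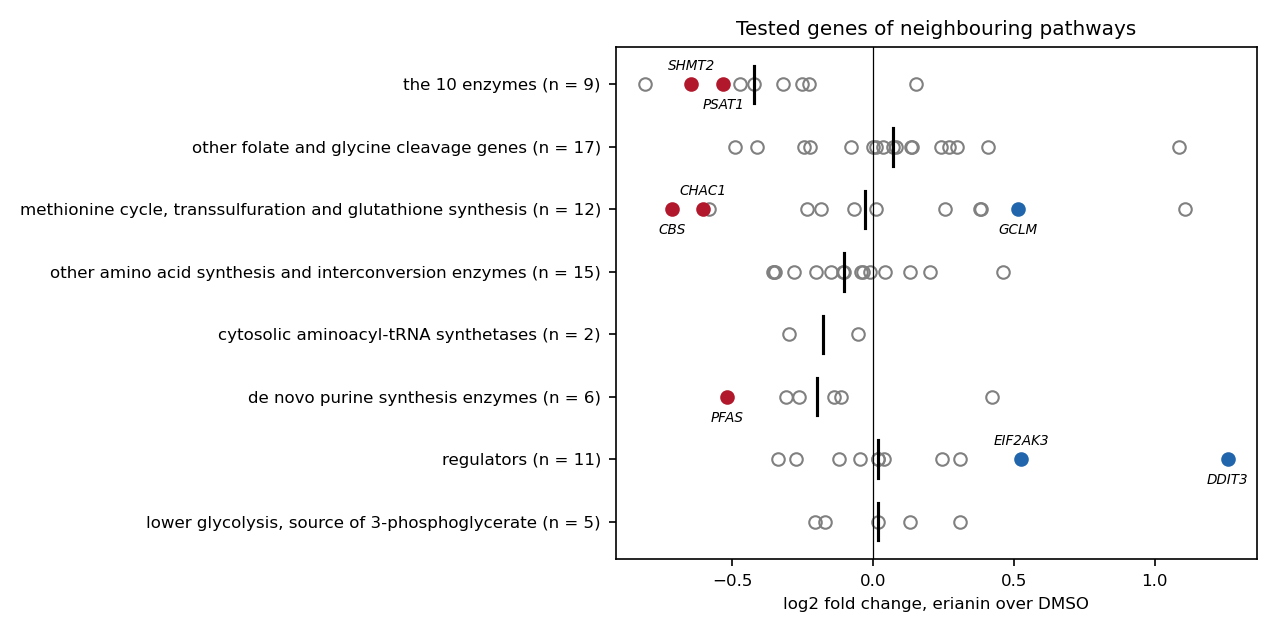
Log2 fold change of erianin over DMSO (horizontal axis, all 6 libraries) of each tested gene in the 10 enzymes and 7 neighbouring lists, with filled points for genes called lower (red) or higher (blue), open points for the rest, and black lines at the list medians. The enzymes have a median of -0.42, and the other lists have medians from -0.20 to 0.07.

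The aminoacyl-tRNA synthetases, a large group of ATF4 targets, could hardly be read. Of 20 cytosolic members, 18 were listed at 0 in every library, although dividing cells cannot do without them. PYCR3, of the amino acid list, was also at 0. These 18 carry a current symbol that differs from the one in GENCODE 29, and among protein-coding genes in general 83.4% of 634 with a changed symbol were listed at 0 in every library against 15.6% of 18425 with an unchanged one. A 0 in these tables is therefore not evidence of an unexpressed gene. All 10 enzymes have unchanged symbols. FARSA, which had counts, had a log2 fold change of -0.30 (edgeR adjusted p = 0.0227) and FARSB of -0.05 (edgeR adjusted p = 0.836). In addition, 16 pseudogene rows named after the 10 enzymes were at 0 in every library, so the division of reads between an enzyme and its copies could not be examined.

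The genes most like 4 of the enzymes over the 6 libraries were found by Pearson correlation of log2 CPM, given as a description with libraries, depth and treatment in common. For PHGDH they were ZNF324, CSNK1D and TUFM (r = 0.999 each), and for SHMT2 they were PGLS (r = 0.999), P2RY2 (r = 0.999) and SERPINB6 (r = 0.998). For MTHFD2 they were ZBTB12 (r = 0.996), APC2 (r = 0.995) and GUSB (r = 0.995), and for ASNS they were UBE4B, POM121 and DNMBP (r = 0.997 each). None of these 12 is an enzyme of the pathway.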

How the data were processed

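RNA-seq libraries of CAL62 cells, 3 with DMSO and 3 with 50 nM erianin, were grouped by their sample titles. Deposited values are raw read counts by gene and, in a second table, TPM that the authors derived from these counts. The submitters' processing notes name fastp 0.23.2, STAR 2.7.10, featureCounts 2.0.1, StringTie 2.2.1 and GRCh38, and the annotation is not given in the sources used here. The study's methods name the BGISEQ-500 platform, and the labels an Illumina library protocol.

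Among 65807 rows, the 26480 without an identifier, which hold 0.00385 to 0.00515% of the reads of a library, were left out. The 39168 Ensembl identifiers were matched to symbols for 38259. Gene positions and GC content came from GENCODE 29 (GRCh38).

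Counts were tested with edgeR 4.0.16 in R 4.3.3 (TMM, filterByExpr, quasi-likelihood, no replicate term), and standard errors were derived from the F statistic. CPM are TMM-normalised. Alternatives were DESeq2 1.42.0, RLE and upper-quartile factors, no low-count filter, a minimum of 10 counts in each library, limma 3.58.1 on log2(TPM + 1) for genes averaging 1 TPM or more, on log2(TPM + 0.1), without the filter and on rescaled TPM, the replicate block, a GC offset (loess span 0.5), both together, each library left out, and other fold thresholds. The GC offset and DESeq2 without DMSO replicate 3, and CPM per kb, were added after seeing the data. The steps were tested on simulated counts, where edgeR recovered 192 of 200 changed genes and called 7 unchanged ones. Those counts had larger fold changes than the enzymes, less spread than these libraries and no outlying library. They therefore do not show how well changes of the reported size are found. Figures were drawn with matplotlib 3.10.9.

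The enzymes and lists were chosen with earlier results of these data known. Named genes are the 10 enzymes, the called genes and the 2 most counted of each list, and the 3 genes most like each of PHGDH, SHMT2, MTHFD2 and ASNS. SMCR8, NDUFA4L2, AC079781.5 and PYCR3 are named beside values they touch, and PGK1, PPAT and SLC19A1 were chosen after their values were seen. Protein sequences were not used here. Some genes of the lists are not reported here and are in none of the list counts.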

Additional observations from a re-analysis of the deposited data

How the results depend on the processing

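No alternative reversed the direction of any single enzyme. Over 9 tested enzymes 158 of the alternative values kept their side of the threshold, 14 lost it and 8 gained it. Most of the 158 were enzymes that were not called and stayed so. All 14 losses fell on PSAT1 and SHMT2, which alone had a call to lose, and most of them on PSAT1. From 2 enzymes called lower, the count went to 3 with DESeq2 and with the GC offset (PSAT1, SHMT2 and ASNS in both), to 1 with upper-quartile factors (SHMT2), to 0 in the limma fits on log2(TPM + 1), log2(TPM + 0.1) and unfiltered TPM, to 1 on rescaled TPM (SHMT2), to 4 with no fold threshold and to 0 with a threshold of 1. The TPM fits shifted the median log2 fold change of all genes to 0.18, 0.20 and 0.12, and on the first of them SHMT2 was at -0.44 (limma adjusted p = 0.0444). Deposited TPM added up to 73.5, 72.6 and 59.1% of the nominal total in DMSO replicates 1, 2 and 3. In erianin replicates 1, 2 and 3 they added up to 77.2, 75.1 and 78.3%. On TPM rescaled to equal totals the median of all genes was 0.02. SHMT2 was then at -0.62 (limma adjusted p = 0.00881) and PSAT1 at -0.49 (limma adjusted p = 0.0575). Leaving out 1 library gave 1 to 3 enzymes called lower, with 3 only without DMSO replicate 3. Without that library, the GC offset called 6 enzymes lower (PHGDH, PSAT1, PSPH, SHMT2, MTHFD2 and ASNS), beside 865 of 13053 tested genes. The GC offset shifted the median log2 fold change of all genes to -0.079 with all libraries and to -0.083 without DMSO replicate 3. In the latter fit PSPH, ASNS and MTHFD2 were near the fold threshold, at -0.506, -0.512 and -0.539. Same-numbered libraries did not deviate together (correlations of 0.0018, 0.031 and -0.030), so the numbers were not taken as pairs. With the replicate block 1 enzyme was called lower (SHMT2), 1 listed gene was called lower and 1 higher, and 281 and 384 of all genes. With the block and the GC offset together 1 listed gene was called higher. The 3 listed genes called lower became 7 with DESeq2 without DMSO replicate 3, 5 with the GC offset without that library, 0 in the 3 TPM fits, 7 with no fold threshold, 0 at a threshold of 1 and 0 to 7 with a library left out. The 3 called higher became 1 with the GC offset, 6 in the 3 TPM fits, 1 on rescaled TPM, 1 at a threshold of 1 and 1 to 6 with a library left out. All genes called were 431 lower and 688 higher. They were 704 and 649 with the GC offset, 865 and 878 with it and without DMSO replicate 3, 799 and 1274 with DESeq2 without that library, 93 and 1096 on log2(TPM + 1), 110 and 1220 on log2(TPM + 0.1), 92 and 1087 unfiltered, 253 and 495 on rescaled TPM, 299 and 822 with upper-quartile factors, 986 and 926 with no fold threshold, 28 and 324 at a threshold of 1, and 126 to 797 lower and 172 to 1485 higher with a library left out. The log2 difference of the MTHFD2 to MTHFD1 ratio ranged from -0.11 to 0.045 with a library left out, with a sign that changed without DMSO replicate 1 or 2 or erianin replicate 1 or 2. Per kb of the longest transcript 6 of the 10 enzymes kept the rank they had in TPM. The causes of these changes were not tested. The alignment of paired proteins was not run. Depth limits ALDH1L2 and, less so, ASNS and CTH.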
